A study of Mus musculus with 9 samples.

Results

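Keratins, small proline-rich proteins and the proteins of the cornified envelope were measured in cerebellar RNA as a gauge of how much epithelial RNA each sample held. The genes were chosen by name: every protein-coding mouse gene called Krt followed by a number, every gene whose symbol starts with Sprr, and Evpl, Ppl, Dsp, Eppk1, Flg, Ivl, Lor and Tgm1. Of the 37816 genes with counts, 67 were members, namely 48 keratins, 11 Sprr genes and the 8 genes given by symbol. Another 3 genes with matching symbols (Sprr2g, Krt74 and Krt8-ps) are annotated as pseudogenes and were left out, and 9 annotated genes that match the rule had no row and were not analysed here. The 9 libraries came from cerebellar tissue of 18-month-old mice on a C57BL/6 background, 3 per group. All mice, controls included, carry human ATXN3 on a yeast artificial chromosome, with 15 CAG repeats in 15Q and 84 repeats in 84Q, and the latter serve as a model of spinocerebellar ataxia, the Machado-Joseph form. The 84Q+IGF-1 mice received weekly intraperitoneal IGF-1 at 50 mg/kg from 9 months of age until harvest. The other mice are labelled untreated, while the treatment protocol names PBS injections. The 15Q and the 84Q lines came from different suppliers, so genotype and colony cannot be told apart in these data.

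Keratins are the intermediate filament proteins of epithelial cells, and they assemble as obligate pairs of an acidic type I chain and a basic type II chain. The pair in use marks the kind of epithelium: Krt5 with Krt14 in the basal layer of stratified epithelia, Krt1 with Krt10 in the layers above it, Krt6 with Krt16 and Krt17 under stress and wounding, and Krt8 with Krt18 in simple, single-layered epithelia. In the outermost layers transglutaminases such as Tgm1 cross-link loricrin, involucrin, envoplakin, periplakin and the small proline-rich proteins into the cornified envelope. The cerebellum itself is built of neurons and glia, and the epithelium that borders it is the choroid plexus, a simple epithelium.

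Counts on genes summed to 26925001 to 58269196 per library in 15Q, 17482654 to 28843999 in 84Q and 23508574 to 29089855 in 84Q+IGF-1. Levels are given as CPM, the counts scaled to the library's total, and as TPM, which also divides by exon length, where genes are compared with each other. A floor of 3 counts lay between 0.0513 and 0.171 CPM, and levels below it rest on fewer counts than that. Where a group had no counts, its ratio is given as a bound from this floor. A ratio over a group with at most 3 counts is printed with a counting interval. As a check of the tissue label, markers of cerebellar neurons summed to 10691 to 11760 CPM in every library. A group of 3 libraries stood apart in choroid plexus RNA, a list of 10 genes led by Ttr: 15Q replicate 1 (526 CPM), 15Q replicate 3 (509 CPM) and 84Q replicate 2 (1081 CPM), against 29.7 to 71.0 CPM in the other 6.

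Of the 67 genes, 62 lie in 3 blocks of the genome (GRCm38). The type I keratins except Krt18 stand within chr11:99232761-100269871, which holds 26 members. The type II keratins stand with Krt18 within chr15:101347444-102032027, which holds 22 members. All Sprr genes, Flg, Ivl and Lor stand within chr3:92080271-93293686, the epidermal differentiation complex, with 14 members. The remaining 5 are Evpl on chromosome 11, Dsp on chromosome 13, Tgm1 on chromosome 14, Eppk1 on chromosome 15 and Ppl on chromosome 16. Promoter sequences (RefSeq, GRCm38.p6) were at hand for 41 members whose start lay within 50 bases of the annotated one. In the 250 bases before the start, TATAAA, the core of the TATA box, read on both strands, occurred in 25 of the 41 (61%) and in 12.4% of all 32817 promoters of the table. On the gene's own strand, 20 of the 41 began a TATAAA between 20 and 40 bases before the start, as did 655 of the 32817. The word TGANTCA, a loose form of the AP-1 site in which N is any base, reads alike on both strands. It occurred in 11 of 41 members (26.8%) and in 6.75% of all promoters, and 10 of the 11 were among the 12 chromosome 3 members with a promoter. GGGCGG, the core of the GC box, read on both strands, occurred in 3 of the 41 (7.32%) against 32.7% of all promoters. Below are the 130 bases before the start for members that carry the results. Capitals mark TATAAA and TGANTCA. Krt5 and Flg were at or near 0 outside 15Q, Sprr1a was counted almost only in 15Q, Krt10 differed less, and Krt25, Krt26 and Krt28 had like levels in all groups.
Krt5 (chr15:101712906-101713035, minus strand): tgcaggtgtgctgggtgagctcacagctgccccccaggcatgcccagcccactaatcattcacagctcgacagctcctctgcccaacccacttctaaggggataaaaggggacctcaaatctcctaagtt
Krt10 (chr11:99389365-99389494, minus strand): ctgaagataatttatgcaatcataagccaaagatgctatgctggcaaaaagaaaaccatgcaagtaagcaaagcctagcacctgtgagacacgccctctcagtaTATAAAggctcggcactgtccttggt
Krt25 (chr11:99322952-99323081, minus strand): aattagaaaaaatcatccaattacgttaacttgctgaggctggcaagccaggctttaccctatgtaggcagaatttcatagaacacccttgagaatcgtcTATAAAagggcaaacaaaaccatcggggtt
Krt26 (chr11:99337966-99338095, minus strand): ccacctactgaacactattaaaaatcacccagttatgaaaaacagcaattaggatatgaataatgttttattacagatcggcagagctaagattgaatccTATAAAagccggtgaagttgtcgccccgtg
Krt28 (chr11:99374904-99375033, minus strand): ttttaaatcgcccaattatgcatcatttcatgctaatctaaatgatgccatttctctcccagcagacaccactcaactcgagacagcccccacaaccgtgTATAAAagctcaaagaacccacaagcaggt
Flg (chr3:93273416-93273545, plus strand): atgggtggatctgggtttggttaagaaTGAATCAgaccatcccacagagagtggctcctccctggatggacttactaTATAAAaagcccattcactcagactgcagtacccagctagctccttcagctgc
Sprr1a (chr3:92485882-92486011, minus strand): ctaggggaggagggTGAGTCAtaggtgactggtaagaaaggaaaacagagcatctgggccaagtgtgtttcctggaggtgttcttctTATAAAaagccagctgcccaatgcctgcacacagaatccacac

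The 3 Sprr2a genes are near-identical copies, and the sequence shown next is a run of 172 bases that all 3 share upstream of their RefSeq starts. It stands at chr3:92215585-92215756 for Sprr2a1, chr3:92250397-92250568 for Sprr2a2 and chr3:92285082-92285253 for Sprr2a3, all on the plus strand. The run of Sprr2a2 lies inside the longer span that GENCODE gives this gene, and its start and that of Sprr2a3 were not among the 41 searched for motifs. Between Sprr2a1 and Sprr2a2 all 250 bases before the RefSeq start are identical.
Sprr2a1, Sprr2a2 and Sprr2a3: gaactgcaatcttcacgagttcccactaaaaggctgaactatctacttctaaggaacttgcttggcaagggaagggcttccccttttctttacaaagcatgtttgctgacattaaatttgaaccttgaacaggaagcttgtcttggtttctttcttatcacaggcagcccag

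Keratin and envelope RNA was higher in each 15Q library than in each of the other 6. Summed over the 67 members it came to 155, 190 and 209 CPM in the 3 15Q libraries, to 116, 115 and 107 CPM in 84Q, and to 114, 113 and 117 CPM in 84Q+IGF-1. Much of this sum was a single gene, Krt222, at 68.0 to 76.5 CPM in every library. Without it the sums were 80.2, 115 and 135 CPM in 15Q, 47.1, 47.2 and 37.9 CPM in 84Q, and 39.9, 43.8 and 40.6 CPM in 84Q+IGF-1. The number of members with at least 1 count was 47, 54 and 65 in the 15Q libraries and 23 to 31 in the other 6. The 15Q libraries were deeper on the whole, and the part of depth in these numbers was not tested. 15Q replicate 1, with 47 members seen, had a total below that of 84Q replicate 1 and of 84Q+IGF-1 replicate 3, with 25 and 29. In 31 of the 67 members each 15Q library lay above each of the other 6, as did 5.09% of all genes. Of the 67, 24 had no count in any of the 6 libraries other than 15Q, while 1 member, Krt39, had none in 15Q. Of these 24, 22 had too few counts to be tested. Several had 1 count in all, in 15Q replicate 3, the deepest library. No gene with a row was at 0 in all 9 libraries. The share of all genes at 0 outside 15Q was not determined, so the 24 are a description. In bulk tissue such as this, fewer cells of a type and less RNA per cell cannot be told apart.

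**Figure D1:**
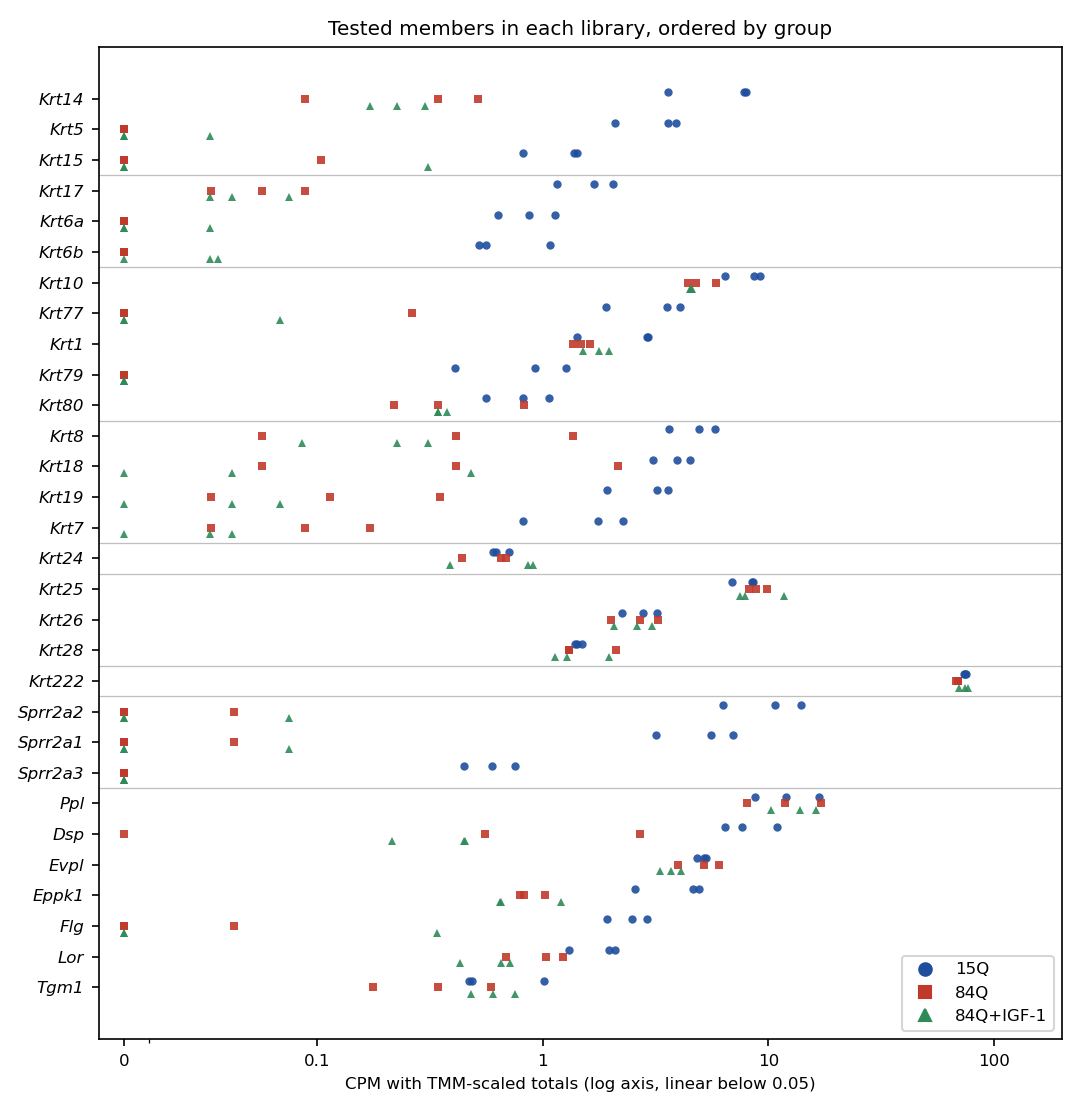
Level in CPM (horizontal log axis, linear below 0.05) of the 30 tested members in each of the 9 libraries, ordered by kind of keratin or protein with lines between the kinds; circles are 15Q, squares 84Q and triangles 84Q+IGF-1. Krt5, Krt14 and the Sprr2a genes sit at 0.446 to 13.9 CPM in 15Q and at 0 to 0.517 CPM elsewhere, while Krt25, Krt26, Krt28, Krt222 and Ppl overlap or lie close together in all 3 groups.

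The filter on low counts left 30 members for the test across 19353 genes, by the quasi-likelihood test of edgeR with Benjamini-Hochberg adjustment. Calls required an adjusted p below 0.1 together with a change of 1.5-fold or more. In 84Q against 15Q, 18 of the 30 were called lower and 0 higher, where 1.9% of all tested genes were called lower and 0.238% higher. In 84Q+IGF-1 against 15Q, 20 were called lower and 0 higher, where 2.06% and 0.186% of all tested genes were. The 18 of the first comparison were all among the 20 of the second, and both comparisons use the same 15Q libraries. The median log2 fold change of the 30 was −2.92 and −4.35, and that of all tested genes was 0.00 and −0.01. Over the 14 members that had enough counts outside 15Q it was −0.41 and −0.31, against 0.01 and 0.00 over all such genes. Of the 30, 16 had passed the filter only because they were high enough in 15Q, which favours a lower call. They made up 15 of the calls in each comparison, and among all genes that passed this way 21% and 22.6% were called lower. Of the 14 members that also had enough counts in the other groups, 3 were called lower in 84Q (Krt10, Dsp and Eppk1), where 1.09% of such genes were. The same 3 with Krt18 and Lor, 5 in all, were called lower in 84Q+IGF-1, where 1.19% were. In the mean of both 84Q groups, compared with 15Q, 20 members were called lower and 0 higher, where 3.23% and 0.284% of all genes were. Without the 3 libraries high in choroid plexus RNA, 15Q was a single library, too little replication for its calls to be read. The calls lost there were those of Flg, Krt10, Krt15, Krt6a, Krt6b, Krt79 and Sprr2a3 in 84Q. In 84Q+IGF-1 they were those of Krt15, Krt18, Krt6b, Lor and Sprr2a3. The log2 fold change of Krt10 in 84Q was −0.80 there and −0.70 in the main fit. In 84Q+IGF-1 those of Krt15, Krt18 and Lor were −3.61, −4.01 and −1.69, against −3.40, −4.33 and −1.58. The other lost calls were over groups with 3 counts or fewer, where the fitted value depends on the prior count.

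The basal keratins had most of their RNA in 15Q, with sums of 6.47, 12.8 and 13.2 CPM there and 0.0879 to 0.621 CPM in the other 6 libraries. All 3 passed the filter through 15Q alone, where 21% and 22.6% of genes were called lower, so that their calls in both comparisons are a description. Krt14 (ENSMUSG00000045545.8, chr11:100203162-100207548), the type I chain of the basal pair, stood at 3.57, 7.82 and 7.97 CPM in 15Q, at 0.517, 0.0879 and 0.342 CPM in 84Q, and at 0.300, 0.226 and 0.171 CPM in 84Q+IGF-1. The lowest 15Q library was thus several times above the highest of the others. Its log2 fold change was −4.30 (SE 0.44, adjusted p = 0.000342) in 84Q and −4.81 (SE 0.45, adjusted p = 0.000188) in 84Q+IGF-1. Krt5 (ENSMUSG00000061527.7, chr15:101707070-101712898), its type II partner, had 56, 145 and 228 counts in 15Q, 0 in each 84Q library, and 0, 0 and 1 in 84Q+IGF-1. Its level was at least 78.8-fold lower in 84Q, taking 3 counts over the group as the floor (adjusted p = 0.000219). In 84Q+IGF-1 the ratio of 15Q over the group was 270 (95% counting interval 48.2 to 10686, adjusted p = 0.000188). Krt15, a type I keratin of basal cells and hair follicle stem cells, had 22, 57 and 80 counts in 15Q, 3, 0 and 0 in 84Q, and 0, 0 and 9 in 84Q+IGF-1. The call of Krt15 was the least firm of the 3. Its adjusted p was 0.0247 and 0.0397, and in 84Q+IGF-1 it was lost without 15Q replicate 2 (0.137), without 15Q replicate 3 (0.150) and without 84Q+IGF-1 replicate 1 (0.117). With DESeq2 it was 0.136 and 0.342.

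The stress and wound keratins were close to absent outside 15Q. The 3 that were tested, Krt17, Krt6a and Krt6b, passed the filter through 15Q alone, as above, so their calls in both comparisons add no support of their own. Krt17, a type I chain of hair follicles and injured skin, had 31, 68 and 120 counts in 15Q and between 1 and 2 in each of the other 6 libraries. Krt6a, a type II chain induced in wounded skin, had 17, 35 and 66 counts in 15Q, 0 in each 84Q library and a single count in 84Q+IGF-1 replicate 3. Krt6b, its neighbour in the genome, had 15, 21 and 63 counts in 15Q, 0 in 84Q, and 0, 1 and 1 in 84Q+IGF-1. The adjusted p of the 3 lay between 0.000136 and 0.00882. Krt6a and Krt6b were at least 21.7-fold and at least 18.2-fold lower in 84Q. Of the 31-base words in the exons of Krt6a and Krt6b, 51.3% and 57% occur in other annotated genes, so reads may be split between the pair. Both together had 1.19, 1.39 and 2.21 CPM in 15Q against 0 to 0.0685 CPM elsewhere. Krt16, the type I partner of Krt6, did not pass the filter, with 10, 32 and 45 counts in 15Q and 1 in the other 6 libraries together.

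Among the suprabasal keratins the pair Krt1 and Krt10 had RNA in all groups, as did Krt80, while Krt77 and Krt79 were nearly confined to 15Q. Krt10 (ENSMUSG00000019761.10, chr11:99385254-99389364), the type I chain of differentiating epidermis, stood at 6.43, 9.21 and 8.60 CPM in 15Q, 4.76, 4.40 and 5.87 CPM in 84Q, and 4.59, 4.48 and 4.56 CPM in 84Q+IGF-1. The groups did not overlap, but the gap was small beside that of Krt14. Its log2 fold change was −0.70 (SE 0.16, adjusted p = 0.0474) in 84Q and −0.84 (SE 0.16, adjusted p = 0.0174) in 84Q+IGF-1. The call in 84Q was lost without 15Q replicate 2 (0.195), without 15Q replicate 3 (0.185) or without 84Q replicate 2 (0.102), and that in 84Q+IGF-1 without 15Q replicate 2 (0.101). Krt1, its type II partner, had 1.41, 2.88 and 2.92 CPM in 15Q, 1.62, 1.36 and 1.48 CPM in 84Q, and 1.97, 1.77 and 1.51 CPM in 84Q+IGF-1. It was not called (adjusted p = 0.176 and 0.347), but without 15Q replicate 1 it was called lower in both comparisons (0.0340 and 0.0937), and without the filter on low counts in 84Q (0.0766). Krt77, a type II keratin of the epidermis, had 51, 143 and 236 counts in 15Q, 0, 6 and 0 in 84Q, and 0, 0 and 2 in 84Q+IGF-1. Krt79 had 11, 37 and 74 counts in 15Q and none in the other 6 libraries, so that 84Q lay at least 22.4-fold lower and 84Q+IGF-1 at least 25.6-fold lower. Both were called lower in both comparisons, having passed the filter through 15Q alone. Krt80 was called in neither (adjusted p = 0.338 and 0.173). Leaving out 84Q replicate 1, at 0.828 CPM the highest outside 15Q, it was called lower in 84Q (0.0902), and without the filter on low counts in 84Q+IGF-1 (0.0470).

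The simple epithelial keratins were also highest in 15Q, and here choroid plexus RNA moved with the levels outside 15Q. Krt8, the type II chain of simple epithelia, had 97, 198 and 339 counts in 15Q, 12, 31 and 1 in 84Q, and 2, 6 and 9 in 84Q+IGF-1. Krt18, its type I partner, had 106, 124 and 263 counts in 15Q, 12, 49 and 1 in 84Q, and 1, 0 and 14 in 84Q+IGF-1. Krt19, the smallest keratin, had 52, 129 and 210 counts in 15Q, 1, 8 and 2 in 84Q, and 1, 0 and 2 in 84Q+IGF-1. In all 3 the highest library outside 15Q was 84Q replicate 2, the library with the most choroid plexus RNA. Krt7, a type II chain of ducts and glands, had 22, 71 and 133 counts in 15Q and between 0 and 3 in each of the other 6 libraries. Krt8, Krt19 and Krt7, which passed the filter through 15Q alone, were called lower in both comparisons, with adjusted p of 0.000289 to 0.0135. Krt18 was called lower in 84Q+IGF-1 (adjusted p = 0.0257) and not in 84Q (0.135), where leaving out 84Q replicate 2 turned the log2 fold change of −2.10 into −3.80 and gave a call (0.0307). The fit without the filter on low counts also called it in 84Q (9.23e-13). Its call in 84Q+IGF-1 was lost without the 3 libraries high in choroid plexus RNA, which leaves a single 15Q library. The log2 fold change was −4.01 there and −4.33 in the main fit. Part of the words of Krt8, 32.3%, occur elsewhere, nearly all in its pseudogene Krt8-ps.

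Summed over Krt8 and Krt18, the 15Q libraries stood at 7.55, 7.995 and 10.3 CPM. Choroid plexus genes stood at 526, 44.2 and 509 CPM in the same 3 libraries. In 84Q the sum was 0.828, 3.52 and 0.114 CPM and in 84Q+IGF-1 0.129, 0.226 and 0.788 CPM. The 7 basal, stress and wound keratins summed to 9.18, 16.7 and 18.3 CPM in 15Q. Outside 15Q, 84Q replicate 2, at 1081 CPM of choroid plexus genes, held 0.176 CPM of these keratins, the lowest of all 9 libraries. The other 5, at 29.7 to 71.0 CPM of choroid plexus genes, held 0.343 to 0.655 CPM. The level in 84Q replicate 2 rests on 2 counts of Krt14 and 2 of Krt17, too few to rank it against the others. The choroid plexus list itself had 0 of its 10 tested genes called in either comparison with 15Q, where 1.9% and 2.06% of all tested genes were called lower. Its median log2 fold change was −0.29 in 84Q, with 0 of 10 genes at an unadjusted p under 0.05, and −3.55 in 84Q+IGF-1, with 9 of 10. In 84Q+IGF-1 its sum was 12.3% of that in 15Q, so it was low there together with the simple keratins, and its part in the levels of Krt8, Krt18 and Krt19 was not tested.

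**Figure D2:**
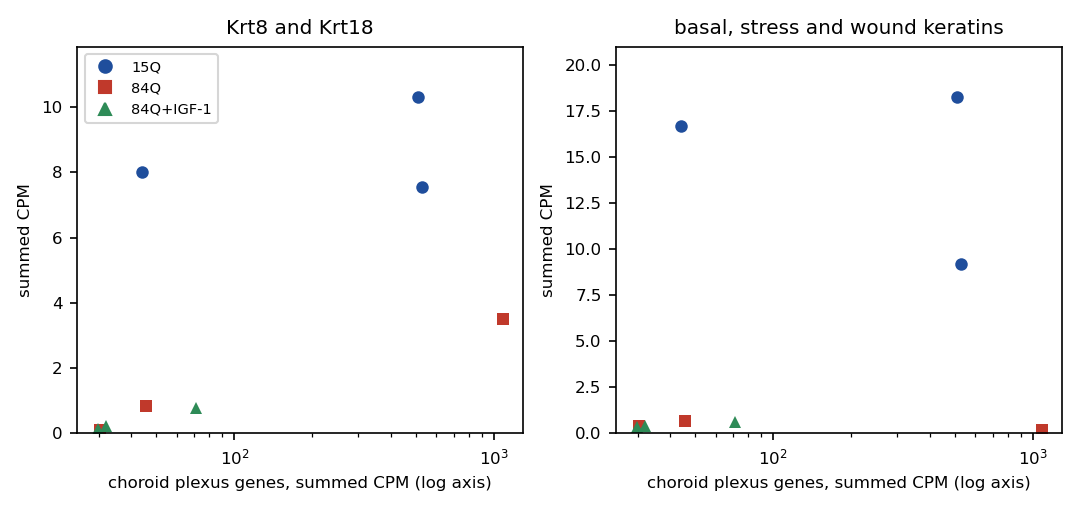
Summed CPM of Krt8 and Krt18 (left) and of the 7 basal, stress and wound keratins (right) on the vertical axes, against the summed CPM of 10 choroid plexus genes (horizontal log axis), 1 point per library; circles are 15Q, squares 84Q and triangles 84Q+IGF-1. Krt8 with Krt18 reached 3.52 CPM in 84Q replicate 2, which has the most choroid plexus RNA, while the other keratins stood at 0.176 CPM there, and 15Q replicate 2 was high on both vertical axes at 44.2 CPM of choroid plexus genes. The 0.176 CPM rests on 2 counts of Krt14 and 2 of Krt17.

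By contrast, 5 type I keratins of the chromosome 11 block had like levels in all 3 groups and were called in neither comparison. Krt222 (ENSMUSG00000035849.14, chr11:99232761-99244085) is a keratin by its symbol and place in the block, and it was by far the most abundant. It stood at 74.4, 75.4 and 73.7 CPM in 15Q, 69.2, 68.0 and 69.0 CPM in 84Q, and 74.0, 69.7 and 76.5 CPM in 84Q+IGF-1. The 84Q libraries lay just below those of 15Q, with a log2 fold change of −0.12 (SE 0.05, adjusted p = 0.212), and that of 84Q+IGF-1 was −0.02 (SE 0.05, adjusted p = 0.852). Only 1.25% of its words occur in another gene. Krt25 (ENSMUSG00000035831.2, chr11:99315516-99322951), Krt26 and Krt28 are type I keratins of the inner root sheath of the hair follicle. Krt25 stood at 6.88, 8.57 and 8.43 CPM in 15Q, 8.80, 8.22 and 9.80 CPM in 84Q, and 11.7, 7.91 and 7.50 CPM in 84Q+IGF-1, so the groups overlapped. Its log2 fold change was 0.16 (SE 0.17, adjusted p = 0.645) in 84Q and 0.17 (SE 0.16, adjusted p = 0.622) in 84Q+IGF-1. Krt26 (ENSMUSG00000075570.2, chr11:99328550-99337966) stood at 2.79, 2.23 and 3.22 CPM in 15Q, 3.24, 2.68 and 1.995 CPM in 84Q, and 2.06, 3.05 and 2.60 CPM in 84Q+IGF-1. The groups overlapped again, with log2 fold changes of −0.04 (SE 0.22, adjusted p = 0.938) and −0.10 (SE 0.22, adjusted p = 0.857). Krt28 lay between 1.13 and 2.11 CPM and Krt24, another type I keratin, between 0.386 and 0.904 CPM, both with overlapping groups.

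The partners of these hair follicle keratins were not seen at matching levels. The type II chains of the inner root sheath, Krt71, Krt72 and Krt73, had 42, 6 and 4 counts over the 15Q libraries and 3, 0 and 0 over the other 6. The keratins of the hair shaft, Krt31 to Krt36 and Krt81 to Krt86 as far as they have rows, had at most 5 counts in any library. The 29 keratin-associated proteins, the matrix proteins of hair, summed to 0 to 0.446 CPM in every library. Krt27, the remaining type I chain of the inner root sheath, had 4, 17 and 11 counts in 15Q and 1 to 4 in each of the other libraries.

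Small proline-rich proteins were almost confined to 15Q. Their sum was 10.4, 18.0 and 22.6 CPM in 15Q, 0, 0.0879 and 0.0570 CPM in 84Q, and 0, 0.151 and 0.171 CPM in 84Q+IGF-1. Nearly all of it came from the Sprr2a genes, which are made in stratified epithelia and in the lining of the intestine. Sprr2a2 (ENSMUSG00000068893.5, chr3:92215920-92256724) had 169, 430 and 812 counts in 15Q, 0, 1 and 0 in 84Q, and 0, 2 and 0 in 84Q+IGF-1. The ratio of 15Q over 84Q was 778 (95% counting interval 139 to 30752), with a fitted log2 fold change of −9.13 (SE 0.62, adjusted p = 3.27e-05). The ratio over 84Q+IGF-1 was 444 (95% counting interval 123 to 3669), with a fitted log2 fold change of −8.46 (SE 0.57, adjusted p = 2.33e-05). The 15Q libraries thus lay far above the rest, and the size of the ratio rests on 1 and 2 counts. Sprr2a1 had 85, 225 and 409 counts in 15Q and the same 1 and 2 counts elsewhere, and Sprr2a3 had 12, 24 and 44 counts in 15Q and none elsewhere, at least 14.7-fold and at least 16.8-fold lower. All 3 were called lower in both comparisons, and all 3 had passed the filter through 15Q alone.

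The division between the Sprr2a genes is uncertain. Of their 31-base words, 97.8% in Sprr2a2, 96.9% in Sprr2a1 and 73.6% in Sprr2a3 occur in other genes, and the annotated spans of Sprr2a1 and Sprr2a2 overlap on the same strand. Their sum was 9.89, 16.9 and 21.6 CPM in 15Q against 0 to 0.151 CPM elsewhere, and may hold reads counted for more than 1 of the genes, since the counting settings for such reads are not given in the sources used here. Of the 8 other Sprr genes none passed the filter. Sprr1a, a cornified envelope precursor also induced in injured neurons, had 7, 33 and 34 counts in 15Q, 0 in 84Q, and 0, 0 and 5 in 84Q+IGF-1. Sprr4 had 3, 8 and 11 counts in 15Q and none elsewhere. The remaining 6 had at most 8 counts in any library.

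The proteins of the cornified envelope and its anchors divided into members near absent outside 15Q and members with RNA in all groups. Flg, the filaggrin precursor that bundles keratin filaments, had 52, 116 and 145 counts in 15Q, 0, 1 and 0 in 84Q, and 0, 9 and 0 in 84Q+IGF-1, and was called lower in both, after passing the filter through 15Q alone (adjusted p = 0.0022 and 0.00381; DESeq2 gave 0.131 for 84Q+IGF-1). Dsp (ENSMUSG00000054889.10, chr13:38151294-38198577), desmoplakin, ties keratin filaments to desmosomes. It stood at 6.39, 7.62 and 10.9 CPM in 15Q, 0.552, 2.68 and 0 CPM in 84Q, and 0.214, 0.452 and 0.445 CPM in 84Q+IGF-1. The 84Q libraries spread widely, the highest being again replicate 2 with the most choroid plexus RNA. Its log2 fold change was −2.91 (SE 0.62, adjusted p = 0.0384) in 84Q and −4.45 (SE 0.71, adjusted p = 0.00618) in 84Q+IGF-1. The call in 84Q was lost without 15Q replicate 2 (0.111), without 15Q replicate 3 (0.154) and with DESeq2 (0.154).

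Eppk1 (ENSMUSG00000115388.2, chr15:76101481-76120195), epiplakin, binds keratin networks. It stood at 2.57, 4.64 and 4.93 CPM in 15Q, 0.828, 0.791 and 1.03 CPM in 84Q, and 0.643, 1.20 and 0.651 CPM in 84Q+IGF-1, with no overlap between 15Q and the rest. Its log2 fold change was −2.22 (SE 0.31, adjusted p = 0.00266) and −2.29 (SE 0.30, adjusted p = 0.0018), and it overlaps the gene BC024139 on the same strand. Lor, loricrin, the main protein of the envelope, had 1.30, 1.96 and 2.09 CPM in 15Q, 1.03, 1.23 and 0.684 CPM in 84Q, and 0.429, 0.715 and 0.651 CPM in 84Q+IGF-1. It was called lower in 84Q+IGF-1 (adjusted p = 0.0165) but not in 84Q (0.132), where leaving out 15Q replicate 1 gave a call (0.0837), as did the fit without the filter on low counts (0.0689). The call in 84Q+IGF-1 was lost without the 3 libraries high in choroid plexus RNA, which leaves a single 15Q library. The log2 fold change of Lor was −1.69 there and −1.58 in the main fit. Ivl, involucrin, did not pass the filter, with 2, 11 and 9 counts in 15Q and 1 in the other 6 libraries.

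Envoplakin and periplakin, the plakins of the envelope, were called in neither comparison. Ppl (ENSMUSG00000039457.4, chr16:5086291-5132421) stood at 8.70, 11.9 and 16.8 CPM in 15Q, 17.0, 11.9 and 8.04 CPM in 84Q, and 10.2, 16.2 and 13.7 CPM in 84Q+IGF-1. The groups covered the same range, and its log2 fold change was −0.02 (SE 0.27, adjusted p = 0.983) and 0.09 (SE 0.27, adjusted p = 0.896). Evpl (ENSMUSG00000034282.3, chr11:116220559-116238077) stood at 5.17, 4.82 and 5.30 CPM in 15Q, 3.97, 6.02 and 5.19 CPM in 84Q, and 3.69, 3.31 and 4.08 CPM in 84Q+IGF-1. Its 84Q+IGF-1 libraries lay below those of 15Q, but its log2 fold change was −0.02 (SE 0.16, adjusted p = 0.97) in 84Q and −0.46 (SE 0.16, adjusted p = 0.173) in 84Q+IGF-1. Tgm1, the cross-linking enzyme, lay between 0.176 and 1.01 CPM with overlapping groups (adjusted p = 0.343 and 0.877).

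**Figure D3:**
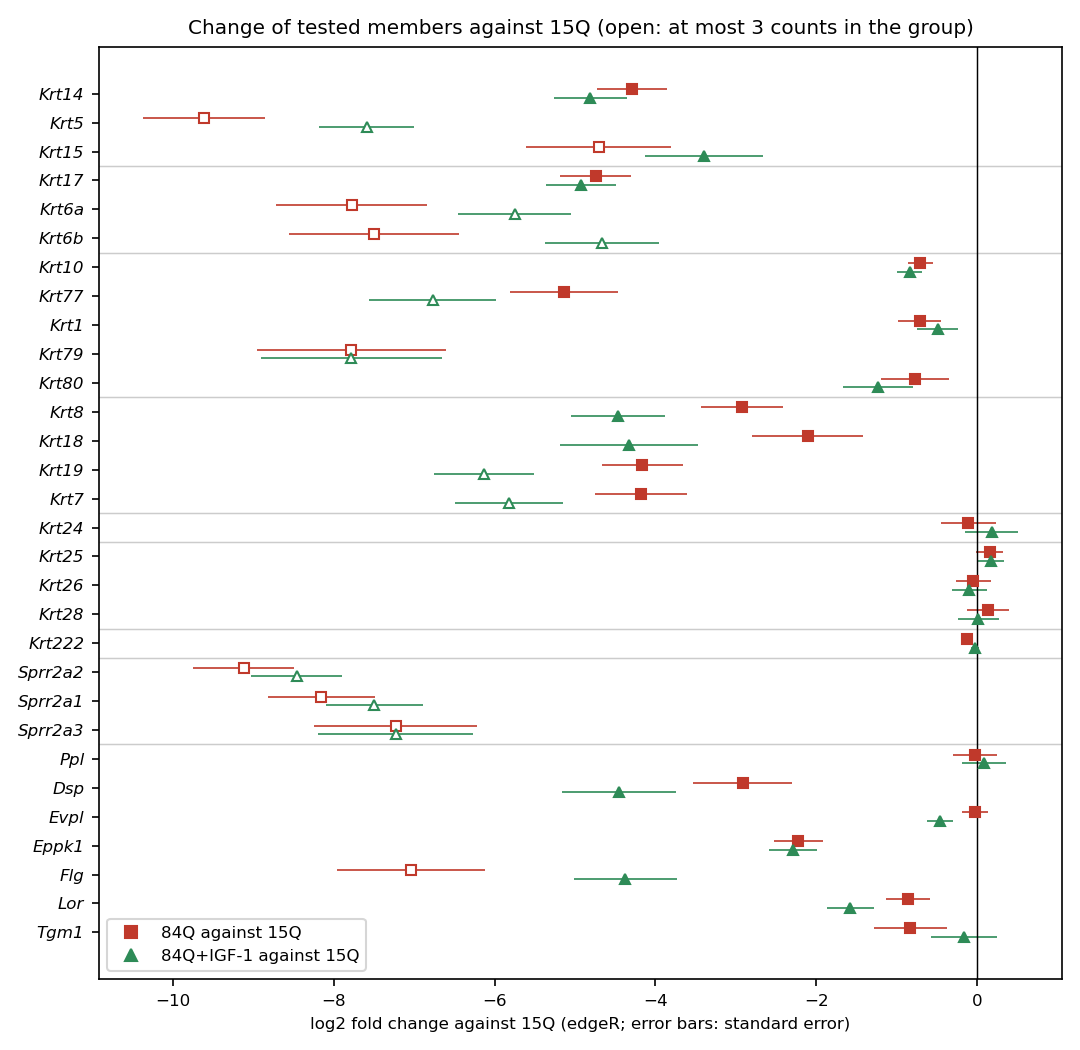
Log2 fold change against 15Q (horizontal axis) of the 30 tested members, with standard errors from the edgeR fit as bars; squares are 84Q, triangles 84Q+IGF-1, and open symbols mark a group with at most 3 counts in all, whose fitted value depends on the prior count. Krt14 stands at −4.30 and −4.81 and Krt10 at −0.70 and −0.84, while Krt222, Krt25, Krt26 and Ppl stand within 0.17 of 0.

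The 37 members that did not pass the filter had 500 counts in all in 15Q, 24 counts in 84Q and 36 counts in 84Q+IGF-1. Summed they came to 2.16, 4.52 and 4.45 CPM in 15Q and to 0.276 to 0.558 CPM in each of the other libraries. Those with 10 counts or more in a library were Krt16, Krt20, Krt23, Krt27, Krt71, Krt78, Sprr1a, Sprr4 and Ivl. Krt20, a type I keratin of the gut and urothelial lining, had 10, 22 and 40 counts in 15Q, 4, 3 and 0 in 84Q, and 2, 2 and 5 in 84Q+IGF-1. Krt23 had 1, 5 and 12 counts in 15Q and 1 elsewhere, and Krt78 had 4, 7 and 10 counts in 15Q and none elsewhere. The other 28 stayed under 10 counts in each library, too few for a comparison of their own.

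**Figure D4:**
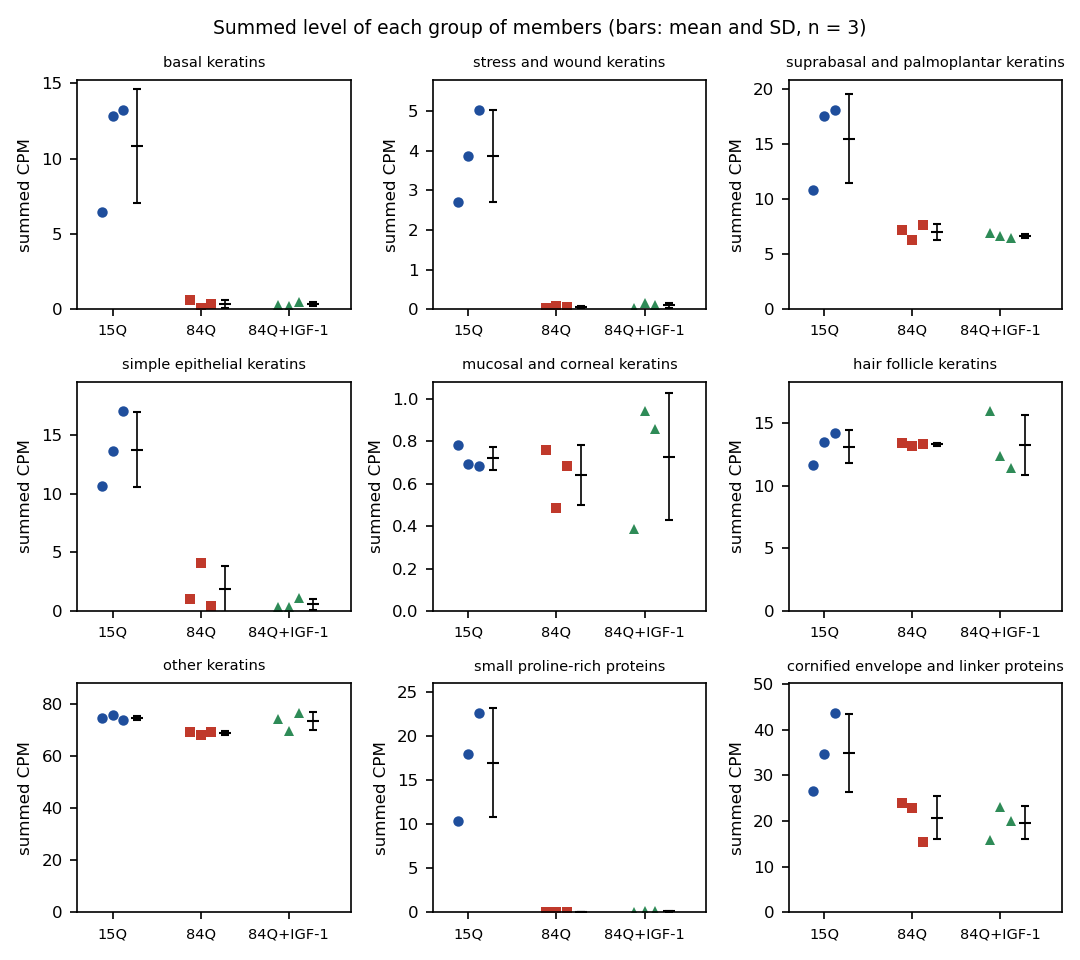
Summed CPM (vertical axes, each from 0) of the 9 groups of members in each library, with the mean and SD (n = 3 libraries) beside each set of points; circles are 15Q, squares 84Q and triangles 84Q+IGF-1. Basal keratins stand at 6.47 to 13.2 CPM in 15Q and at most 0.621 CPM elsewhere, while hair follicle keratins stand at 11.4 to 15.9 CPM in all groups.

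Since keratins pair as type I with type II chains, the balance of both types was compared per length. Type II keratins summed to 28.9 ± 8.92 TPM in 15Q, 3.10 ± 1.37 TPM in 84Q and 2.57 ± 0.0765 TPM in 84Q+IGF-1 (SD, n = 3). Type I keratins summed to 175 ± 16.7, 121 ± 1.22 and 125 ± 5.61 TPM. The share of type I was 86.0% ± 2.74 in 15Q, against 97.5% ± 1.05 for 84Q and 98.0% ± 0.0735 for 84Q+IGF-1, with no overlap between 15Q and the rest. Most of the type I excess was Krt222, at 91.7, 81.8 and 88.9 TPM on average. Without it the share was 74.5% ± 2.47, 92.8% ± 2.71 and 93.4% ± 0.378. Within pairs, Krt14 exceeded Krt5 in 15Q with 8.17, 17.9 and 18.6 TPM against 3.81, 6.60 and 7.29 TPM. The simple pair was closer, with Krt18 at 11.03, 8.63 and 12.9 TPM and Krt8 at 7.41, 10.1 and 12.2 TPM in 15Q. Krt16 stood at 0.955, 2.04 and 2.02 TPM beside Krt6a at 1.05, 1.45 and 1.92 TPM. Krt6a and Krt6b together, between which reads may be split, stood at 2.05, 2.39 and 3.90 TPM. Krt17, the other type I chain of this set, stood at 2.99, 4.38 and 5.43 TPM. By TPM the suprabasal pair was less even, with Krt10 at 12.2, 17.5 and 16.7 TPM and Krt1 at 1.29, 2.63 and 2.72 TPM. So was Krt19, at 4.19, 6.95 and 7.95 TPM, beside Krt7, at 0.467, 1.01 and 1.32 TPM. The exon lengths used were 4415 bases for Krt1 and 7049 for Krt7, but 2114 for Krt10 and 1855 for Krt19. In CPM the gaps were smaller, with Krt10 at 6.43, 9.21 and 8.60 and Krt1 at 1.41, 2.88 and 2.92. Krt19 stood at 1.93, 3.20 and 3.59 CPM and Krt7 at 0.818, 1.76 and 2.27 CPM.

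**Figure D5:**
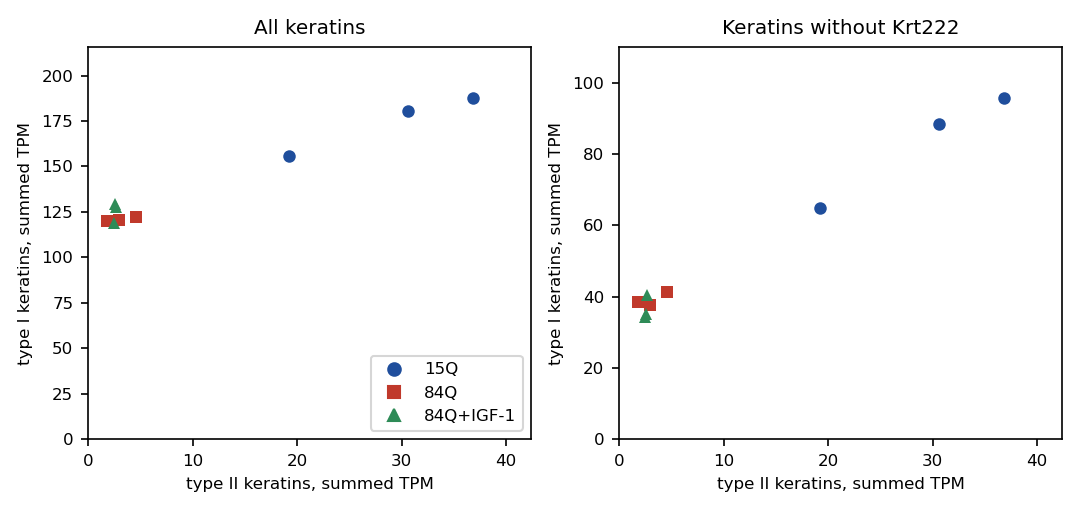
Summed TPM of type I keratins (vertical axis) against type II keratins (horizontal axis) in each library, for all keratins (left) and without Krt222 (right), both axes starting at 0; circles are 15Q, squares 84Q and triangles 84Q+IGF-1. The 15Q libraries stand at 19.3 to 36.9 TPM of type II keratins and the other 6 at 1.82 to 4.55 TPM.

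Between 84Q+IGF-1 and 84Q, 0 of the 30 members were called, as was 0% of all tested genes, with edgeR, and 0 with DESeq2. Without the filter on low counts 3 were called lower in 84Q+IGF-1, Dsp, Krt18 and Krt8, and in each of these 84Q replicate 2 had the most counts of the 6 libraries. An unadjusted p under 0.05 was reached by 3 members, Evpl (0.0208), Lor (0.0440) and Krt18 (0.0475), all lower in 84Q+IGF-1, with an adjusted p of 0.969 each. Of all tested genes, 4.68% reached that level. Krt18 had the largest log2 fold change of the 3, with levels of 0.875 ± 1.12 CPM in 84Q and 0.174 ± 0.265 CPM in 84Q+IGF-1 (SD, n = 3) and a value of −2.23 (SE 1.01). The adjusted p was computed over all genes, and a p that misses the threshold does not show that the levels were alike.

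Within 15Q most of the called members were lowest in the same library. The 18 members called lower in both comparisons summed to 44.7, 71.5 and 83.0 CPM in replicates 1, 2 and 3, and 17 of the 18 were lowest in replicate 1. The highest was replicate 3 for 15 of them. Not all members shared this order, with Krt18, Krt26 and Evpl lowest in replicate 2. Replicate 1 was also lowest for the lists of intestine (31.5, 46.5 and 49.5 CPM), liver (10.9, 18.8 and 21.2 CPM) and skeletal muscle (15.9, 22.9 and 24.7 CPM). It was highest for the summed stratified epithelium partners (319, 294 and 272 CPM) and the choroid plexus list (526, 44.2 and 509 CPM). Most of the partner sum came from Jup, so its order need not be that of the other partners. The 10 tested members called in neither comparison summed to 102, 109 and 114 CPM, most of it Krt222. The 9 without Krt222 summed to 28.1, 33.8 and 40.7 CPM, again lowest in replicate 1.

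Other genes of stratified epithelium were taken as a list of 43 desmosomal, envelope and barrier genes, of which 41 had rows and 18 were tested. In 84Q 9 of the 18 were called lower, among them the desmosomal genes Dsc2, Dsc3, Dsg1a and Pkp1, and in 84Q+IGF-1 11 were, none higher, beside 1.9% and 2.06% of all tested genes. Of the 18, 9 had passed the filter through 15Q alone, which favours such calls. All 9 calls in 84Q and 9 of the 11 in 84Q+IGF-1 were of these. The list summed to 295 ± 23.6 CPM in 15Q, 302 ± 42.7 CPM in 84Q and 305 ± 21.3 CPM in 84Q+IGF-1 (SD, n = 3), most of it Jup. These 4 desmosomal genes were named after their values were seen. The median log2 fold change of the 18 was −1.29 and −1.59, and that of the 9 with enough counts outside 15Q was −0.41 and −0.13. The number called in 84Q was 7 to 13 with each library left out in turn. It was 3 without the 3 libraries high in choroid plexus RNA, a fit that also leaves 15Q a single library, so that replication and choroid plexus RNA cannot be told apart there. The 3 most abundant of the list, all with RNA in every group, were not called. Jup, plakoglobin, a protein of desmosomes and adherens junctions, stood at 178 to 238 CPM in 15Q, 192 to 282 CPM in 84Q and 223 to 262 CPM in 84Q+IGF-1. Aloxe3, an epidermal lipoxygenase, stood at 18.9 to 23.5 CPM and Sbsn, suprabasin, at 10.2 to 21.2 CPM over the 9 libraries.

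Markers of other tissues moved with the keratins, and their part in the result was not tested. The counts of calls that follow stand beside 1.9% of all tested genes called lower in 84Q and 2.06% in 84Q+IGF-1. Enough counts outside 15Q to pass the filter were found in 3 of the 9 tested intestine genes, 1 of the 7 liver genes, 4 of the 9 muscle genes and all 10 meninges genes, and the rest passed through 15Q alone, which favours a lower call. Of 14 intestine genes, 9 were tested and 8 called lower in 84Q and 9 in 84Q+IGF-1, with sums of 31.5 to 49.5 CPM in 15Q and 4.87 to 6.42 CPM elsewhere. Fabp1, a fatty acid binding protein of the gut and liver, stood at 5.61, 8.57 and 9.01 CPM in 15Q and at 0 in 5 of the other 6 libraries. Of 12 liver genes 7 were tested and all 7 called lower in both comparisons, with sums of 10.9 to 21.2 CPM in 15Q and 0.558 to 2.62 CPM elsewhere. Of 10 skeletal muscle genes 9 were tested and 7 called lower in both, with sums of 15.9 to 24.7 CPM in 15Q and 3.52 to 5.73 CPM elsewhere. The 10 genes of the meninges, which line the cerebellum, were all tested, with 2 called lower in 84Q and 5 in 84Q+IGF-1, and summed to 129 to 201 CPM in 15Q and 67.2 to 116 CPM elsewhere.

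Genes of 3 other epithelia were low in all groups. Urothelium genes summed to 0.904 to 1.81 CPM over the 9 libraries, stomach genes to 0.793 to 1.88 CPM, and airway and lung genes to 0.103 to 0.586 CPM. Of these lists 1 urothelium gene and 1 stomach gene were tested, and 0 were called in either comparison with 15Q. Blood genes spread within groups, from 32.3 to 211 CPM in 15Q and from 22.9 to 80.9 CPM in the other 6, with 0 of 5 called.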

How the data were processed

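Strand-specific, paired-end RNA-seq was done on cerebellar RNA of 9 mice. Per the submitters' processing notes and the methods, reads were demultiplexed with bcl2fastq 2.20, trimmed with Trimmomatic 0.36, aligned to mm10 with HISAT2 2.2.0 and assigned to genes with featureCounts. The authors deposited the resulting read counts per gene, not normalized. The annotation and strand setting of the counting are not given in the sources used here. Where strand was not used, reads of antisense neighbours cannot be told apart.

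Counts were analysed in edgeR 4.0.16 (R 4.3.3): TMM, filterByExpr by group (minimum count 10), 1 quasi-likelihood fit to all 9 libraries without covariates, two-sided tests and Benjamini-Hochberg adjustment over 19353 genes. Calls required an adjusted p below 0.1 and a 1.5-fold change. TPM used the union of exons in GENCODE vM21. SE values were derived from the F statistic. Counting intervals (95%, exact) and floors (3 counts) cover counting error only. The labels do not say how replicates were taken, so p-values measure the spread between these samples. Libraries of 1 group differed beyond sampling noise (chi-square per gene 8.82 to 14.7).

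The members and all gene lists were chosen with earlier results of these data known, so no list serves as independent evidence. By rule, every tested member is named or counted in its group, the 8 members given by symbol are always named, untested members are named from 10 counts in a library, and full statistics are given for the 10 tested members with the highest mean CPM. From other lists at most 3 genes of the highest mean CPM were to be named. The alternatives were DESeq2 1.42.0, no filter, DESeq2 size factors, an adjusted p under 0.05, the replicate number as a block, a fit to the 2 groups alone, and leaving out each library. Settings without the 3 libraries high in choroid plexus RNA, and the type I share without Krt222, were added after seeing the data. The steps were tested on simulated counts.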

Additional observations from a re-analysis of the deposited data

How the results depend on the processing

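No call changed direction under the alternatives run, and none of the 67 members was called higher in a comparison with 15Q. Some members called in neither comparison changed sign between settings, such as Ppl in 84Q (log2 fold change −0.33 to 0.27), Krt26 in 84Q (−0.22 to 0.26) and Tgm1 in 84Q+IGF-1 (−0.35 to 0.37). Without the filter on low counts, 28 members were called lower in 84Q, 33 in the mean of both 84Q groups and 3 in 84Q+IGF-1 against 84Q, and 17 stratified epithelium partners in 84Q. DESeq2 called 15 of these partners. Without the 3 libraries high in choroid plexus RNA, 11 members and 3 partners were called lower in 84Q. That fit has fewer samples, with 15Q as a single library assumed to vary like the other groups. Leaving out each library in turn gave 16 to 23 members in 84Q, 18 to 24 in 84Q+IGF-1, 19 to 24 in the mean, 0 between 84Q+IGF-1 and 84Q, and 7 to 13 partners. Without Krt222 the log2 ratio of the summed members went from −0.71 to −1.32 in 84Q and from −0.68 to −1.41 in 84Q+IGF-1, and the type I share of keratin TPM was 74.5%, 92.8% and 93.4% in 15Q, 84Q and 84Q+IGF-1. That share in 84Q+IGF-1 was 97.3% on CPM and 98.1% over keratins with 10 counts in a library, moves larger than its small SD.

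Samples with the same replicate number did not deviate together (correlations of −0.31 to 0.079), so the numbers do not pair the samples. With the replicate number as a block, 18 members were called in 84Q, 19 in 84Q+IGF-1, 0 between both and 20 in the mean, and 7 partners, and Krt15 in 84Q+IGF-1 lost its call (adjusted p = 0.101). Of 60 results of single tested members over 840 settings, 805 settings kept their side of the threshold, and 21 results changed side at least once. Depth limits the 37 untested members and every ratio over a group with 3 counts or fewer.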
